A study of Mus musculus with 6 samples.

Results

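The cytosolic ribosomal protein genes encode the proteins of the 60S (large) and 40S (small) ribosomal subunits. They were taken as the protein-coding genes of the GENCODE M21 annotation whose symbols begin with Rpl or Rps and a digit, with Rplp0, Rplp1, Rplp2, Rpsa and Fau and without the Rps6 kinases. This rule found 93 members among the 55536 genes counted, 57 named for the large subunit and 35 for the small subunit. The remaining member, Rps19bp1, encodes a protein that binds Rps19 and is not itself a ribosomal protein. The ribosomal protein members hold 78 canonical genes (46 large and 32 small), 8 paralogs such as Rpl39l and Rps27l, and 6 retrocopies (named -ps) that the annotation lists as protein-coding. Rack1 also encodes a ribosomal protein but carries another name, so it was described beside the members.

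Satellite cells, the resident stem cells of skeletal muscle, were profiled by RNA-seq in 3 control and 3 cKO samples of C57BL/6J mice. The control samples came from Pax7CreErt2;Hira fl/+ mice and the cKO samples from Pax7CreErt2;Hira fl/fl mice, so the controls also carried the Cre and 1 floxed Hira allele; the sample labels call the control genotype WT. The Cre is expressed from Pax7, and adult males of 8 to 12 weeks received tamoxifen food for 2 weeks and then regular food for 1 week. Cells were sorted 5 days post-injury, by a gate that requires the satellite cell proteins CD34 and ITGA7 and removes cells with CD45 (leukocytes), TER119 (erythroid cells) or SCA1 (fibroblastic and endothelial cells), and were then cultured for 48 h. HIRA, the deleted factor, is a histone chaperone that deposits the variant histone H3.3.

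Each ribosome contains 1 copy of most of these proteins, and the genes are transcribed at high and similar rates in growing cells. Their mRNAs share a tract of pyrimidines at the 5′ end, the TOP motif, through which mTORC1 signalling sets how strongly they are translated. The genes have also given rise to a very large number of processed pseudogenes, which are intronless copies of their mRNAs scattered through the genome.

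The TOP motif was looked for around the RefSeq start sites (assembly GRCm38.p6), and 67 of the 93 members had a promoter entry. A run of a C followed by at least 5 further C or T, beginning within 10 bases of the start on the gene's strand, was found in 32 of the 67 members (47.8%), with 18 of 40 in the large and 14 of 26 in the small subunit. The same run was found in 19.2% of all 32851 promoters. The following 30-base windows show it in the kinase target Rps6, in Rps15a and Rpl39l, to which the comparison of cKO with control returns, in the canonical Rpl39, in the ubiquitin-like fusion gene Fau, and show its lack in Rplp0 and Rps19. Each window runs from 10 bases before the start to 20 bases from the start onwards, and capitals mark the run.
Rps6 (chr4:86857348-86857377, minus strand): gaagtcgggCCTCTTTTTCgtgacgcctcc
Rps15a (chr7:118116128-118116157, minus strand): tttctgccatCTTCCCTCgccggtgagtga
Rpl39l (chr16:10170218-10170247, plus strand): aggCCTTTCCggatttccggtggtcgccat
Rpl39 (chrX:37085203-37085232, minus strand): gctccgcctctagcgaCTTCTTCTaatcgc
Fau (chr19:6057937-6057966, plus strand): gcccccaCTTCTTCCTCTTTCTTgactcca
Rplp0 (chr5:115559457-115559486, plus strand): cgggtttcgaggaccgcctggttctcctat
Rps19 (chr7:24884666-24884695, plus strand): cggtgagtgagggctctgggtcgcggctgt
The run was 10 bases long in Rps6, 8 in Rps15a, 7 in Rpl39l, 8 in Rpl39 and 16 in Fau. In the 300-base promoters (250 bases before to 50 after the start), CCGGAA was found on either strand in 49.3% of the members with an entry and in 14.9% of all promoters. AANATGGC, also on either strand, was found in 19.4% and 6.05%. TATAAA, searched 45 to 15 bases before the start on the gene's strand, was found in 1.49% and 2.14%. These are matches of letters, some of which overlap, and not measured binding sites. The pyrimidine run was searched only around a single annotated start per gene. A window without it therefore does not show that the mRNA lacks a TOP motif.

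Raw counts summed to between 47944477 and 63323577 reads per sample. Counts were scaled by the TMM method and compared by the quasi-likelihood test of edgeR. The p-values were adjusted by the Benjamini-Hochberg method over 22404 genes. CPM is counts per 1000000 of the scaled library. The targeted gene Hira had 375, 348 and 341 counts in control and 161, 293 and 272 counts in cKO, with a log2 fold change of -0.43 (SE 0.12, adjusted p = 0.0237). Defining markers of satellite cells and myoblasts were detected in all samples, at a summed 9893 to 9992 CPM in control and 8588 to 9200 CPM in cKO; 9 of the 12 were lower in cKO and 1 was higher. All 15 macrophage markers were higher in cKO (152 to 158 CPM in control and 317 to 367 CPM in cKO, none at 0), as were 6 of the 9 fibroblast markers tested of 11 (1093 to 1173 CPM and 1476 to 1621 CPM) and 4 of 10 endothelial markers (17.99 to 20.1 CPM and 27.6 to 33.2 CPM). Erythroid markers summed to under 1 CPM in each sample, and the 1 tested of 6 was not called. In bulk RNA, fewer cells of a type and less RNA per cell cannot be told apart.

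The 93 members together held 1.87% to 1.90% of all counts in the control samples and 1.90% to 1.98% in the cKO samples, a difference of under 0.1 percentage points between group means. The large subunit members took 1.21%, 1.23% and 1.23% of counts in control and 1.28%, 1.23% and 1.26% in cKO. The small subunit members took 0.656%, 0.668% and 0.661% in control and 0.696%, 0.668% and 0.677% in cKO. Every cKO share lay above every control share for the large subunit, and the shares overlapped for the small subunit. After TMM scaling both overlapped: the summed CPM was 12356 ± 104 in control and 12508 ± 327 in cKO for the large subunit (SD, n = 3), and 6675 ± 60.4 and 6747 ± 173 for the small subunit.

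The balance between the subunits was steady across samples. Large subunit members held 1.85, 1.84 and 1.86 times the counts of small subunit members in control, and 1.85, 1.85 and 1.87 times in cKO. The groups overlapped, and their means of 1.851 ± 0.00795 and 1.854 ± 0.0124 (SD, n = 3) differed by less than the spread between replicates. With 3 samples a group, an exact permutation test of such a ratio could not go below p = 0.10.

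**Figure D1:**
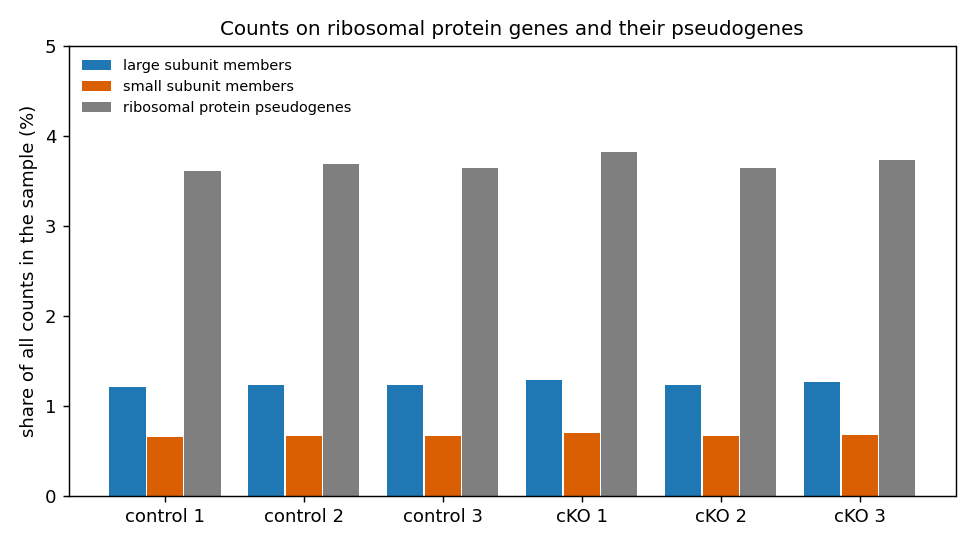
Share of all counts in each of the 6 samples (percent, bars from 0) on large subunit members, small subunit members and ribosomal protein pseudogenes. Pseudogenes held 3.61% to 3.82% of counts in every sample, more than both subunits together, and the heights change little between control and cKO.

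Across the tested members the difference between cKO and control was close to 0. Of the 93 members, 89 passed the filter on low counts and were tested. Of these, 2 (2.25%) passed an adjusted p under 0.05, Rpl39l higher and Rps15a lower in cKO, against 15.8% of all 22404 genes tested (9.38% higher and 6.46% lower). Among genes averaging at least 50 CPM, a minimum chosen after the values were seen, 1 of 68 members and 26.1% of 4397 genes were called. The median log2 fold change was 0.018 for the 53 tested large subunit members and 0.0084 for the 35 small subunit members, beside -0.0011 for all genes tested and -0.020 for the 4397 genes of at least 50 CPM. It was above 0 for 38 of 53 large and 20 of 35 small subunit members.

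The interval of the difference was narrow for most members. For 85 of the 89 the log2 fold change lay within 0.1 of 0, and the 95% interval lay wholly between -0.2 and 0.2 for 83. For the members other than Rpl39l the standard error was at most 0.096, and replicates were close: among the 84 members of at least 10 CPM, the median coefficient of variation was 2.06% in control and 3.48% in cKO. The CPM of the groups did not overlap for 10 members (11.2%), against 31.8% of all genes tested. These were Rpl39l, Rps19, Rpl3, Rpl26, Rpl14 and Rpsa, higher in cKO, and Rps15a, Rps18, Rpl36al and Rpl7l1, lower in cKO.

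**Figure D2:**
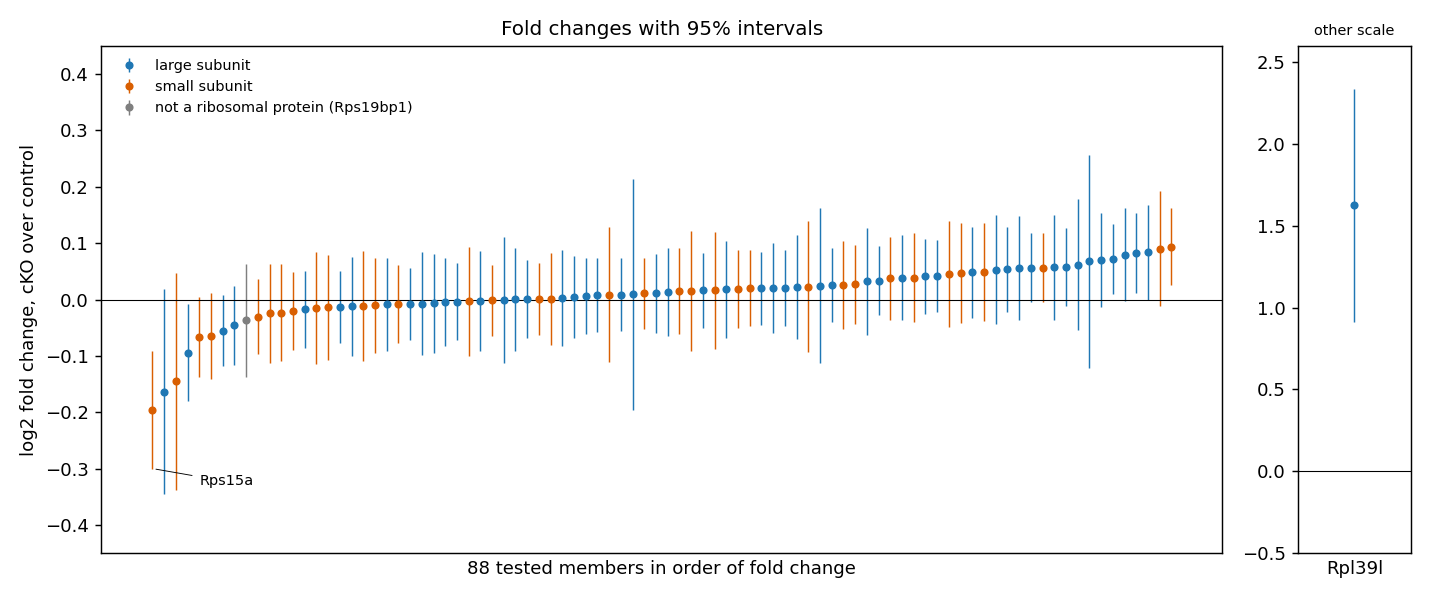
Log2 fold change of cKO over control with its 95% interval (edgeR) for 88 tested members in order of size, coloured by subunit, and for Rpl39l on a second scale at the right. Apart from Rps15a at the far left, no member on the first scale passed the test, and 85 of the 89 estimates lie within 0.1 of 0.

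Among the large subunit proteins, those of the stalk that binds elongation factors are Rplp0 and the acidic proteins Rplp1 and Rplp2. Rplp0 had 1224, 1251 and 1234 CPM in control and 1295, 1213 and 1254 CPM in cKO. Rplp1 had 630, 673 and 636 CPM in control and 694, 612 and 634 CPM in cKO. For both genes the samples of the groups were interleaved, and the 95% intervals of the log2 fold changes were -0.05 to 0.09 and -0.09 to 0.09. Rplp2, at 126 to 143 CPM over the 6 samples, did not pass either (adjusted p = 0.978, interval -0.09 to 0.09).

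Rpl5 and Rpl11, which assemble with 5S rRNA and can bind Mdm2 when ribosome assembly fails, were both measured. Rpl5 had 270, 272 and 281 CPM in control and 287, 276 and 284 CPM in cKO (log2 fold change 0.04, SE 0.031, adjusted p = 0.446). Rpl11 had 109, 116 and 114 CPM in control and 115, 111 and 114 CPM in cKO (adjusted p = 0.954, interval -0.07 to 0.08). Neither gene separated the groups. Rpl3, a core protein near the peptidyl transferase centre, had 252, 251 and 254 CPM in control and 266, 261 and 259 CPM in cKO, with every cKO sample above every control sample, but did not pass (log2 fold change 0.06, SE 0.029, adjusted p = 0.221). Rpl13a, known for a role in translational silencing outside the ribosome, had 168 to 172 CPM in control and 172 to 177 CPM in cKO (log2 fold change 0.04, SE 0.030, adjusted p = 0.413). Rpl41, the smallest ribosomal protein, had 512, 515 and 495 CPM in control and 508, 449 and 469 CPM in cKO. Its log2 fold change was -0.09 (SE 0.040, adjusted p = 0.138) and ranged from -0.15 to -0.06 over the samples left out. The largest fall, -0.15, came without cKO replicate 1 (adjusted p = 0.00227, edgeR).

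Of the small subunit proteins, Rps6 is the best known target of the S6 kinases. It had 257, 265 and 281 CPM in control and 276, 270 and 278 CPM in cKO, and the groups overlapped (log2 fold change 0.04, SE 0.035, adjusted p = 0.55). Rps19, mutated in Diamond-Blackfan anaemia, came closest to the threshold among the members not called. It had 71.9, 71.4 and 70.1 CPM in control and 76.3, 75.0 and 76.5 CPM in cKO, which did not overlap (log2 fold change 0.09, SE 0.032, adjusted p = 0.0595). It passed with libraries scaled by total counts alone (adjusted p = 0.0176) and with genes filtered at 1 CPM in 3 samples (adjusted p = 0.0352). The partner protein Rps19bp1 had 18.6 to 19.8 CPM in control and 18.2 to 18.8 CPM in cKO (adjusted p = 0.689).

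Rpsa, which is also the laminin receptor precursor, had 1223, 1221 and 1263 CPM in control and 1295, 1277 and 1283 CPM in cKO, without overlap (log2 fold change 0.06, SE 0.029, adjusted p = 0.227). The genes that make a ribosomal protein fused to ubiquitin or a ubiquitin-like protein were also near 0. Fau had 94.2 to 111 CPM over the 6 samples (adjusted p = 0.88, interval -0.09 to 0.12) and Rps27a 52.2 to 58.4 CPM (adjusted p = 0.89, interval -0.11 to 0.08). Rack1, a scaffold protein of the small subunit outside the naming rule, averaged 725 ± 10.2 CPM in control against 735 ± 23.6 CPM in cKO (SD, n = 3, adjusted p = 0.761).

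Rps15a (ENSMUSG00000008683, mm10 chromosome 7 from 118104372 to 118116188, minus strand) was the member lower in cKO. This small subunit protein had 4354, 4745 and 4131 counts in control and 3247, 3672 and 3623 counts in cKO. Scaled, control replicates 1 to 3 stood at 77.7, 75.6 and 67.9 CPM and cKO replicates 1 to 3 at 67.4, 61.1 and 64.7 CPM. The groups did not overlap, although control replicate 3 and cKO replicate 1 were almost level. The log2 fold change was -0.20 (SE 0.049, adjusted p = 0.0119, edgeR). The call was lost without control replicate 1 (adjusted p = 0.0647) and without control replicate 2 (adjusted p = 0.0653).

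The pseudogenes of Rps15a held more counts than the gene. They were assigned by sequence, each to the member its best match came from, and 17 belonged to Rps15a. Together they had 401, 408 and 403 CPM in control and 428, 391.8 and 418 CPM in cKO, so that the gene itself held 16.2%, 15.6% and 14.4% of its family's CPM in control and 13.6%, 13.5% and 13.4% in cKO. With pseudogene counts added to the parent gene, the log2 fold change of Rps15a was -0.0030 (SE 0.035, adjusted p = 0.972). The summed family had 479, 484 and 471 CPM in control and 495, 453 and 483 CPM in cKO, and the groups overlapped.

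**Figure D3:**
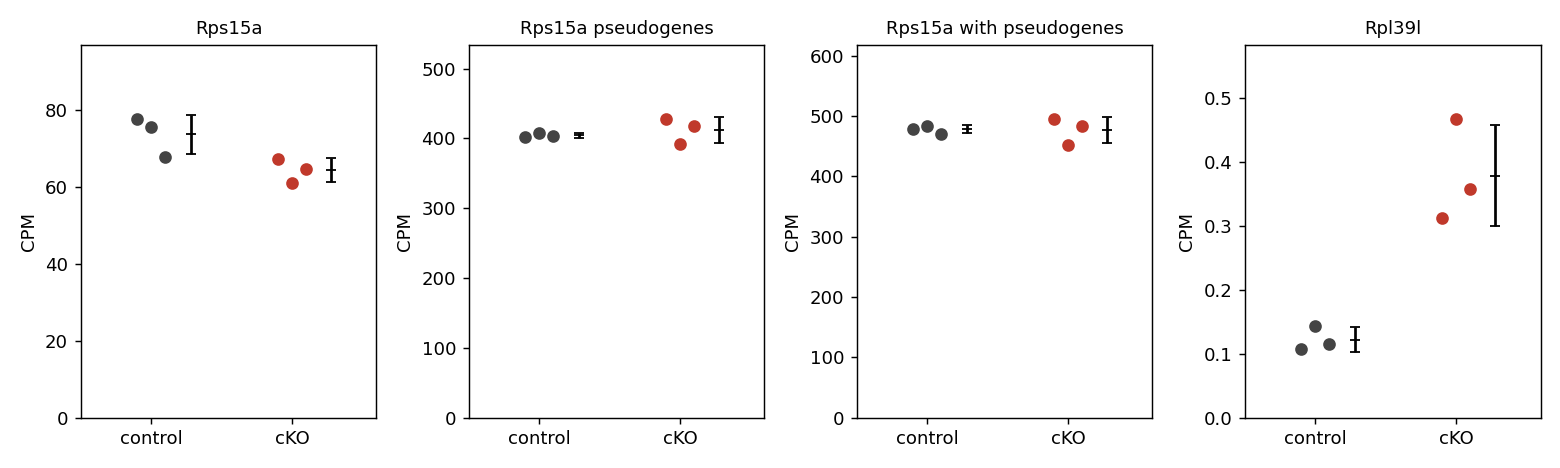
CPM (linear axes from 0) of Rps15a, of its 17 pseudogenes summed, of both together, and of Rpl39l in control and cKO. Points are samples, and the bars beside them are the mean and SD of 3 samples; the groups separate for Rps15a and Rpl39l and overlap for the Rps15a pseudogenes and for the whole family.

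The most abundant copies of Rps15a did not pass the test. Rps15a-ps7 had 252 ± 3.21 CPM in control samples and 251 ± 11.6 CPM in cKO samples (SD, n = 3, adjusted p = 0.891), and Rps15a-ps5 had 96.9 ± 1.84 and 97.8 ± 3.09 CPM (adjusted p = 0.869). Of the 8 Rps15a pseudogenes tested, 3 of lower level rose and none fell. Rps15a-ps8, a 387-base copy at chromosome 4 from 53791070 to 53791456 (minus strand) that is 92.2% identical to Rps15a, had 568, 636 and 512 counts in control and 859, 961 and 1023 counts in cKO. It rose by 0.86 on the log2 scale (SE 0.074, adjusted p = 9.79e-07). Rps15a-ps2 had 94, 115 and 109 counts in control and 148, 170 and 178 counts in cKO (log2 fold change 0.77, SE 0.11, adjusted p = 0.000155), and Gm26983 had 24, 30 and 24 counts and 39, 37 and 40 counts (log2 fold change 0.70, adjusted p = 0.0427).

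The exon junctions of Rps15a were looked for in the 5 of its pseudogenes with the most counts, and its other pseudogenes were not searched. The authors aligned reads with Bowtie2, which does not split a read over an intron. A 75-base read of spliced mRNA that crosses a junction therefore does not match the gene along its whole length. It can match an intronless copy along its whole length where that copy has the same sequence. Below are the coding junctions of Rps15a, 30 bases on each side, with the downstream exon in capitals. They are followed by the first coding junctions of Fau and Rpl4 that had full length on both sides, for comparison.
Rps15a exons 2 and 3: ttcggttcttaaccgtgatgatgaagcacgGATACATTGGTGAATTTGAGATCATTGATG
Rps15a exons 3 and 4: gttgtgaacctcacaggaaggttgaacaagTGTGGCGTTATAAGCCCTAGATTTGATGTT
Rps15a exons 4 and 5: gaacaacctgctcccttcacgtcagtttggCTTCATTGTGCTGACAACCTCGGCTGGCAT
Fau exons 1 and 2: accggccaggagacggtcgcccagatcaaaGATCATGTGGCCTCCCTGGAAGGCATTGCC
Rpl4 exons 2 and 3: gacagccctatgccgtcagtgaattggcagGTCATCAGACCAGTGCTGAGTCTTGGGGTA
The 60 bases over exons 2 and 3 of Rps15a were found in none of the 5 pseudogenes searched. Those over exons 3 and 4 were found unchanged in Rps15a-ps7, Rps15a-ps5, Rps15a-ps6 and Rps15a-ps3, and those over exons 4 and 5 in Rps15a-ps7 and Rps15a-ps5. The Fau junction was found in its 1 pseudogene, Gm9843, which is 100% identical to Fau over its match, and the Rpl4 junction in none. For Rps15a 52.3% of all 75-base windows of the transcript cross a junction, and 37.3% of all windows occur elsewhere among the annotated transcripts. Of the windows over a junction alone, 46.3% occur elsewhere for Rps15a and 9.06% for Rpl4. The union of its annotated exons is 6270 bases and its principal transcript is 640 bases, so counts outside the mature mRNA can also enter.

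Rpl39l (ENSMUSG00000039209, chromosome 16 from 10170226 to 10174911, plus strand) was the member higher in cKO. It is a paralog of Rpl39, a small protein of the peptide exit tunnel, and is known for its expression in testis. It had 6, 9 and 7 counts in control and 15, 28 and 20 counts in cKO, without overlap. Scaled, the control samples stood at 0.107, 0.143 and 0.115 CPM and the cKO samples at 0.311, 0.466 and 0.357 CPM. The log2 fold change was 1.63 (SE 0.33, adjusted p = 0.00325, edgeR). Rpl39l passed the filter on low counts through the cKO samples alone, the group in which it is high, and it was dropped when at least 1 CPM in 3 samples was asked for.

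Rpl39 itself had 85.0, 87.5 and 84.0 CPM in control and 90.6, 80.9 and 85.5 CPM in cKO (adjusted p = 0.981, interval -0.08 to 0.09). Per exonic length Rpl39 stood at 59.6 RPKM in control and 59.7 RPKM in cKO, and Rpl39l at 0.147 and 0.455 RPKM. The reads of the paralogs can be told apart, as their coding sequences show. Capitals mark the bases at which the sequences differ, 23 of 156 (85.3% identity).
Rpl39: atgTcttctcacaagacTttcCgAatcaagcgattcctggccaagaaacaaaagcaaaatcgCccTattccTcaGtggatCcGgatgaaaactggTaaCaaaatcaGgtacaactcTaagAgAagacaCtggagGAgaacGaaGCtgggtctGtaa
Rpl39l: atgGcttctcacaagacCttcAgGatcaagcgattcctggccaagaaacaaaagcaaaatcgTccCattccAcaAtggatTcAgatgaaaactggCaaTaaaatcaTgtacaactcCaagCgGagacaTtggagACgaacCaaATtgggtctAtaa
No 75-base window of the Rpl39l transcript occurred in any other annotated transcript, and its 1 assigned pseudogene held 1.36% of the family's counts. The macrophage, fibroblast and endothelial markers given above rose in the same samples as Rpl39l, and those of satellite cells fell with Rps15a; their part in either result was not tested.

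The other paralogs with a role of their own did not pass. Rpl3l, the form of Rpl3 known from mature striated muscle, had 9, 6 and 7 counts in control and 4, 12 and 5 counts in cKO and was not tested, while Rpl3 stood at 79.4 and 82.5 RPKM. Rpl10l, known from testis, had 0 counts in every sample, beside 72.6 and 73.4 RPKM for Rpl10. At a floor of 3 counts, a level of Rpl10l below that in a library could not have been detected. Rpl22l1 had 7.19, 7.68 and 9.06 CPM in control and 8.49, 9.02 and 7.59 CPM in cKO (adjusted p = 0.695, interval -0.12 to 0.26), and its parent Rpl22 had 284 to 298 CPM over all samples.

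Rpl36al had 4.59, 4.38 and 4.18 CPM in control and 4.09, 3.70 and 3.97 CPM in cKO, without overlap (log2 fold change -0.16, SE 0.085, adjusted p = 0.236), and Rpl36a had 159 to 168 CPM. Pseudogenes held 96.3% of the Rpl36al family's counts. With them added, the log2 fold change of Rpl36al was 0.03 (SE 0.034, adjusted p = 0.654, edgeR). Rpl7l1, a relative of Rpl7, had 125, 129 and 127 CPM in control and 123, 122 and 122 CPM in cKO (log2 fold change -0.06, SE 0.030, adjusted p = 0.259). Rpl7 had 364 to 384 CPM. Rps27l, a p53 target, had 108 to 118 CPM (adjusted p = 0.565) and the retrocopy-like Rps27rt 124 to 139 CPM (adjusted p = 0.783), both above the 18.5 to 20.1 CPM of Rps27 in each sample. Of the 75-base windows within an exon, 100% for Rps27 and 90.3% for Rps27rt occur elsewhere among the transcripts. The levels of Rps27 and Rps27rt therefore could not be ordered. Rps4l is annotated as a pseudogene in GENCODE M21 and so is no member, and its best sequence match was Rps4x (80.1% identity). It had 351, 405 and 378 counts in control and 382, 441 and 416 counts in cKO (log2 fold change 0.26, SE 0.067, adjusted p = 0.0150), while Rps4x had 342 to 356 CPM (adjusted p = 0.995).

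Per exonic length, the levels of the large subunit members were led by Rplp1 with 1226 to 1390 RPKM over the 6 samples, followed by Rplp0 with 731 to 780 RPKM. Rpl8, with 651 to 705 RPKM, and Rpl4, with 645 to 686 RPKM, overlapped and could not be ordered. Rpl41, with 384 to 441 RPKM, came next by its mean but overlapped Rpl32 with 383.5 to 431 RPKM. In the small subunit the order was Rps12-ps3 (527 to 560 RPKM), Rps15 (450 to 523 RPKM), Rpsa (385 to 409 RPKM), Rps27rt (330 to 370 RPKM) and Rps3a1 (256 to 273 RPKM), and neighbours among these 5 did not overlap, although Rps3a1 overlapped the next gene, Rps26 (248 to 267 RPKM). Of these, Rps12-ps3 is a retrocopy, and 100% of its 75-base windows occur elsewhere among the transcripts, as do 90.3% of those of Rps27rt.

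The lowest levels of the large subunit were those of Rpl3l, Rpl36-ps4 and Rpl10l, all under 0.2 RPKM. In the small subunit they were those of Rps15a (9.75 to 12.4 RPKM), Rps13 (7.61 to 8.18 RPKM) and Rps10 (2.56 to 3.49 RPKM), which are canonical genes of the ribosome. The annotated exons of Rps15a are together far longer than its principal transcript of 640 bases, so its low rank depends on the length used. Per length of the principal transcript, Rps10 was still the lowest canonical gene of the small subunit. Rps10 had 7.53, 8.06 and 7.74 CPM in control and 7.74, 5.91 and 7.56 CPM in cKO (adjusted p = 0.333, interval -0.34 to 0.05). Its pseudogenes held 97.7% of the family's counts, 90.1% of its windows occur elsewhere, and 20.6% of its exonic bases are shared with an annotated read-through gene on the same strand. Exons of 23 members overlap another gene, 19 of them on the opposite strand, and the strand setting of the counting is not given in the sources used here.

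Pseudogenes took most of the counts of the ribosomal protein families. By best sequence match, 1783 annotated pseudogenes were assigned to members, 256 of them without a count in any sample. They held 65.8% to 66.0% of the counts of members and pseudogenes in control and 65.7% to 65.8% in cKO. Over the 78 canonical genes the pseudogene share had a median of 75.4%, and it was over 50% for 62 of them and over 90% for 15. The pseudogenes of Rps2 (104 copies, 1919 CPM), Rpsa (35 copies, 1684 CPM), Rpl7a (164 copies, 1137 CPM), Rpl21 (113 copies, 1079 CPM) and Rps3a1 (11 copies, 1049 CPM) took the most counts. In contrast, pseudogenes held under 20% for Rpl8, Rplp1, Rplp2, Rpl22, Rps3 and Rps27. For Rps27 this share is 0 because the copies matched Rps27rt better.

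**Figure D4:**
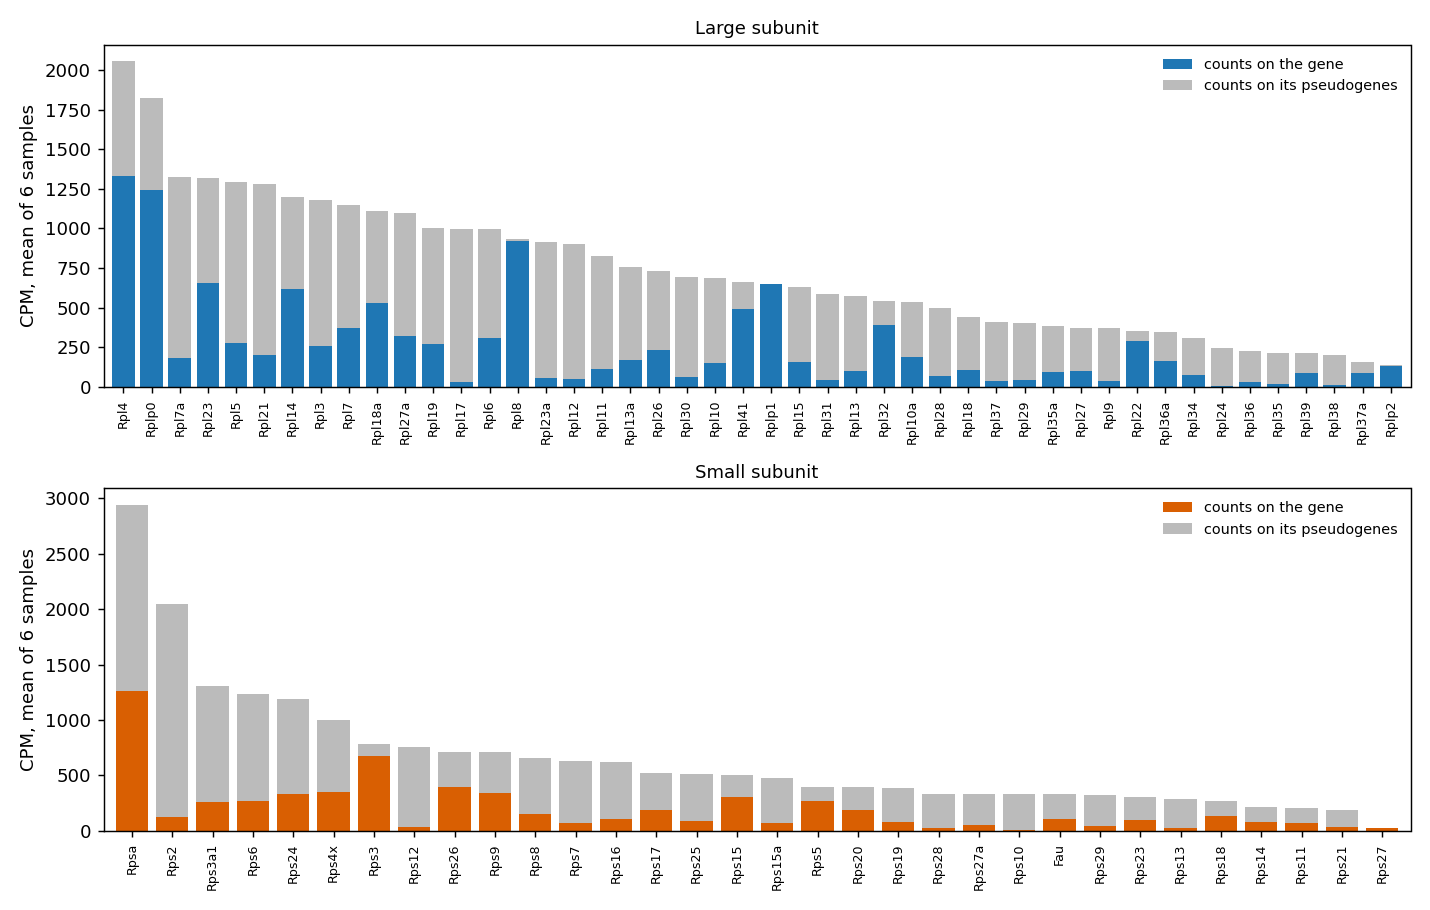
Mean CPM of the 6 samples (bars from 0) on each canonical gene and, stacked above it in grey, on the pseudogenes assigned to it, for the large and the small subunit. Rps2 and Rpl7a are mostly grey, while Rpl8, Rplp1 and Rps3 are almost wholly their own colour.

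The pseudogene share moved with shared sequence. Over the 78 canonical genes, the share of counts on pseudogenes and the share of 75-base windows found elsewhere had a Spearman rho of 0.52 and a Pearson r of 0.49; the genes share libraries and the annotation, and no test was made. Windows over a junction made up a median of 47.0% of the transcript, from 6.11% to 100%. The most abundant pseudogenes were Rpsa-ps10 (896 ± 15.3 CPM in control and 901 ± 23.6 CPM in cKO), Gm5835 of Rpl4 (732 ± 2.46 and 716 ± 13.6 CPM), Gm9794 of Rpl23 (662 ± 9.33 and 665 ± 16.8 CPM), Rpl14-ps1 (574 ± 8.68 and 583 ± 23.3 CPM) and Gm15500 of Rpl5 (557 ± 8.49 and 566 ± 12.5 CPM; SD, n = 3 for all). None of the 5 passed the test.

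Counting pseudogenes with their genes narrowed the range of levels. The fold between the highest and lowest canonical gene was 403 per exonic length, 158 per length of the principal transcript, and 36.2 per transcript length once pseudogene counts were added. Rps27, whose copies were all assigned to Rps27rt, was then the lowest. Without Rps27 the last fold was 19.2 and the lowest gene was Rps20. The principal transcript of Rps20, at 3706 bases, is the longest among the members, so its level per length depends on that transcript. The SD of the log2 level fell from 1.74 to 1.47 and then to 0.87 over the same 78 genes (0.76 without Rps27). For the large subunit alone it was 1.76, 1.59 and 0.68, and for the small subunit 1.70, 1.28 and 1.07 (the last 0.87 without Rps27). The medians of the subunits were then 784 and 742 CPM per 1000 transcript bases. Counts per 1000 start positions unique to the gene, which 71 of the 78 genes had, gave an SD of 1.62.

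**Figure D5:**
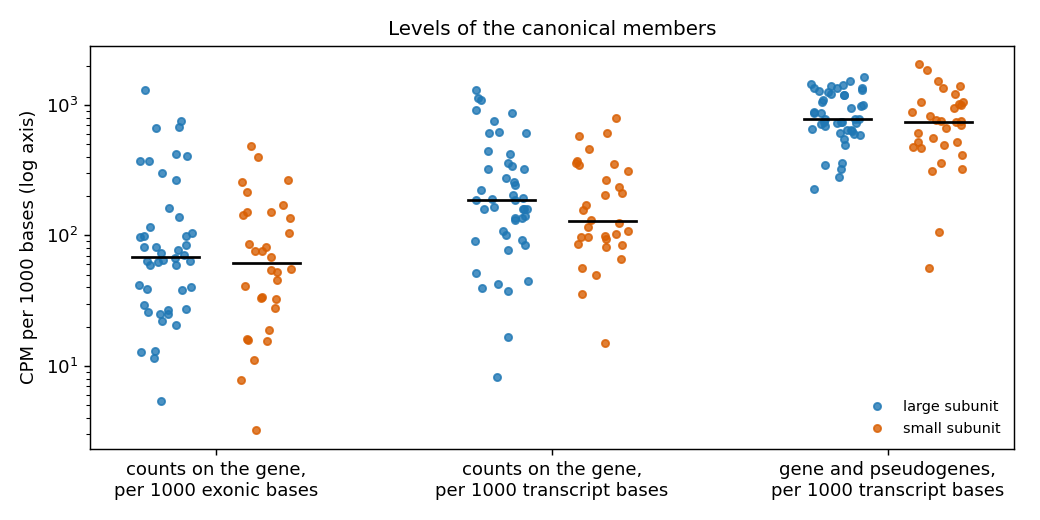
Level of the 78 canonical genes (CPM per 1000 bases, log axis) by 3 measures, with 1 point per gene, horizontal offsets for legibility and bars at the medians. The points draw together when pseudogene counts are added to those of the gene, and the large and small subunit medians, 784 and 742, lie side by side.

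Between cKO and control, 18 of the 801 ribosomal protein pseudogenes tested were called (2.25%, beside 15.8% of all genes), 11 higher and 7 lower, with a median log2 fold change of 0.0046. The Rpl26 family moved both ways. The copy Gm15772, 99.5% identical to Rpl26, had 277 ± 4.46 CPM in control against 251 ± 5.98 CPM in cKO (SD, n = 3) and fell by 0.15 on the log2 scale (adjusted p = 0.00370). Gm10136 had 147 ± 3.10 and 163 ± 4.98 CPM and rose by 0.15 (adjusted p = 0.00425), and Gm11826 had 29.9 ± 2.73 and 38.2 ± 3.13 CPM and rose by 0.35 (adjusted p = 0.00145). Rpl26 itself had 228, 227 and 231 CPM in control and 239, 238 and 244 CPM in cKO (log2 fold change 0.07, SE 0.029, adjusted p = 0.116), and its whole family 729 ± 11.5 and 738 ± 18.3 CPM (log2 fold change 0.02, adjusted p = 0.761).

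Rps13-ps2, which is 100% identical to Rps13 over its match, had 103 ± 2.29 CPM in control against 89.9 ± 3.52 CPM in cKO (SD, n = 3) and fell by 0.19 on the log2 scale (adjusted p = 0.00144). Rps13 had 20.7 ± 0.216 and 21.4 ± 0.625 CPM (log2 fold change 0.05, adjusted p = 0.576). Gm9320 of Rps24 rose from 15.6 ± 1.153 to 22.0 ± 1.13 CPM (log2 fold change 0.49, SE 0.058, adjusted p = 2.59e-05). With all pseudogene counts added to their parent genes, 1 of 89 members was called, Rpl39l, against 16.5% of 21603 genes, and the other log2 fold changes lay between -0.07 and 0.07.

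Many ribosomal protein introns contain small nucleolar RNA genes, which guide the modification of rRNA. On the same strand inside 30 members lie 58 such genes. Of the 30 that share bases with an annotated exon of the host, 28 had no count in any sample. The 28 within introns summed to 1056, 1474 and 1483 counts in control and 922, 1147 and 1151 counts in cKO. Of these, 22 were tested and 1 was called, against 15.8% of all genes tested. It was Gm26448 inside Rpsa, with 207, 408 and 457 counts in control and 189, 205 and 249 counts in cKO. Its log2 fold change was -0.60 (SE 0.19, adjusted p = 0.0420), and the groups overlapped.

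Other genes of ribosome production were set beside the members, and their counts of calls stand against 9.38% of all genes tested called higher and 6.46% called lower. Of 20 translation factors and other TOP mRNAs, 1 was higher and 1 lower in cKO, and the median log2 fold change was 0.0045. The lower one was Naca, a subunit of the nascent polypeptide-associated complex (-0.13, SE 0.035, adjusted p = 0.0143), and the higher one was Vim, the filament protein vimentin (0.09, SE 0.030, adjusted p = 0.0499). Of the 7 TOP small nucleolar RNA hosts tested, Gas5 rose from 90.5 ± 2.31 to 101 ± 2.85 CPM (SD, n = 3, adjusted p = 0.00328).

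Of 16 genes for RNA polymerase I and rDNA transcription, 2 were higher: Taf1d, a subunit of the promoter selectivity factor (log2 fold change 0.22, SE 0.030, adjusted p = 7.84e-05), and Myc (0.26, SE 0.048, adjusted p = 0.00121). Of 50 ribosome assembly factors, 1 was lower, the nucleolar protein gene Ncl. It had 43733, 42583 and 39827 counts in control and 23683, 37564 and 32725 counts in cKO (log2 fold change -0.31, SE 0.073, adjusted p = 0.00774), with the lowest count in cKO replicate 1. Of 15 regulators of TOP mRNAs and mTORC1, 2 were lower, Larp4 (-0.13) and Rps6kb1 (-0.11), the latter being a kinase of Rps6. Rps6kb2, another S6 kinase gene, was not called (0.05, SE 0.044, adjusted p = 0.504). Of 77 mitochondrial ribosomal proteins tested, 1 was lower, Mrpl47 (-0.16, SE 0.046, adjusted p = 0.0298), with a median of -0.024. All adjusted p-values are from edgeR over 22404 genes.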

How the data were processed

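RNA-seq was performed on 3 control and 3 cKO samples; whether each came from a separate mouse is not given, so p-values measure the spread between these samples. Per the labels and the paper, the authors aligned single-end 75-base reads of ribosomal RNA-depleted RNA to mm10 with Bowtie2 2.3.4.2 and deposited raw counts per gene made with featureCounts 1.6.3. Its strand and multiple-match settings are not given in the sources used here. The normalized signal the authors deposited equals these counts times 1 factor per sample and served as a check. Their DESeq2 comparison (fold changes and p-values) was not used. No column was left unmapped.

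All 55536 identifiers matched GENCODE M21. Genes were filtered (filterByExpr), scaled (TMM) and tested with edgeR 4.0.16 (quasi-likelihood, genotype only, Benjamini-Hochberg adjusted p under 0.05) in R 4.3.3, after a test on simulated data. Replicates differed by more than sampling noise. RPKM is CPM per 1000 exonic bases. Pseudogenes were assigned by blastn 2.17.0 best match. Shared sequence was measured in 75-base windows. Alternatives were DESeq2 1.42.0, other scalings and filters, a GC and length correction, a replicate block, added pseudogene counts and leaving out each sample.

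The members and lists were chosen with earlier results of these data known. Named members are those called, the 5 highest and 3 lowest per length of each subunit, paralogs with their parents, members with known roles, and those with most pseudogene counts or shared windows. Rpl26, Rpl41 and Rps18, and the pseudogenes and small nucleolar RNAs named, were chosen after their values were seen. The result of 1 further gene is not reported here.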

Additional observations from a re-analysis of the deposited data

How the results depend on the processing

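Of the 89 members tested, 1 was called higher and 1 lower, and the same counts were found with DESeq2, RLE size factors, TMM factors computed without members and pseudogenes, and the replicate block, alone or with the GC and length correction. Over all genes these settings called 7.52% to 9.38% higher and 5.58% to 8.85% lower. With total counts alone as the scale, 4 were higher (Rpl32, Rps19, Rpl26 and Rpl39l), while calls over all genes went from 2101 higher and 1448 lower to 2462 (10.99%) and 1057 (4.72%). Without a filter, 2 were lower (Rps15a and Rpl41), beside 4.51% of 39816 genes. With the GC and length correction alone, 3 were lower (Rps15a, Rps18 and Rpl7l1), while over all genes 1967 (8.78%) were called higher and 2173 (9.70%) lower. With at least 1 CPM asked for in 3 samples, the 1 higher was Rps19, since Rpl39l was dropped, beside 11.7% of all genes called higher. With pseudogene counts added to the parent gene, 0 were lower in edgeR's test (1 at an unadjusted p under 0.05), beside 6.73% of all genes. DESeq2 was not run in that setting. Leaving out 1 sample gave 1 to 3 higher and 0 to 3 lower members, beside 6.88% to 9.70% of all genes higher and 4.02% to 7.33% lower. The 0 arose without control replicate 1 and without control replicate 2 (1 each at an unadjusted p under 0.05), the 3 lower without cKO replicate 1 (Rps15a, Rpl41 and Rps18) and the 3 higher without cKO replicate 2 (Rpl32, Rpl19 and Rpl39l). The cause was not tested.

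Rps15a ranged from -0.25 to -0.16 and Rpl39l from 1.43 to 1.76 on the log2 scale over the samples left out. The subunit medians moved by less than their spread between samples in every setting, from -0.00025 to 0.035 (large) and -0.0098 to 0.028 (small) with a sample left out. Total counts alone moved the median of all genes from -0.0011 to 0.023 and the subunit medians to 0.042 and 0.033; the GC and length correction turned the small subunit median to -0.0089. The numbers of the samples do not pair them: deviations of same-numbered samples correlated at -0.015 to -0.0045. Depth limits Rpl39l, Rpl3l and other members of a few counts per sample.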
